A study of Rattus norvegicus with 6 samples.

Results

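The 33 genes described here encode enzymes of fatty acid oxidation and other targets of PPAR alpha, measured in the renal cortex of rats given monuron or its vehicle. They were chosen by name, as enzymes of acyl-CoA formation and carnitine transfer, mitochondrial and peroxisomal beta-oxidation and microsomal omega-oxidation, with acyl-CoA thioesterases, fatty acid binding proteins and regulators of fuel use. The choice was made with earlier results of these data known. All 33 of 33 had at least 1 probe, 55 probes in all, and all 33 were among the 30229 genes tested. The probe used for each was well above background on all 6 arrays, so none entered the test through 1 group only. The arrays came from 6 male Sprague-Dawley (Crl:CD(SD)) rats, bought at 5 weeks of age and kept on a basal diet. Corn oil was given to 3 control rats for 4 weeks, and monuron, a phenylurea herbicide, was given to 3 rats at 200 mg/kg/day for 4 weeks. Nothing in the labels separates the groups otherwise, and the age at sampling is not given beyond the age at purchase and the length of treatment. Renal cortex is a mixture of cells in which proximal tubule predominates. In such bulk RNA, fewer cells of a type and less RNA per cell cannot be told apart.

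Proximal tubule cells of the kidney draw most of their ATP from fatty acids. A fatty acid is first joined to coenzyme A, carried into mitochondria as an acylcarnitine, and then shortened in a repeated spiral of dehydrogenation, hydration, a further dehydrogenation and thiolysis. Peroxisomes shorten very long and branched chains, and cytochrome P450 enzymes of the Cyp4a family hydroxylate the omega end of medium and long chains. PPAR alpha, a nuclear receptor that is activated by fatty acids and by fibrate drugs, binds DNA with RXR and induces many genes of all these routes in liver, kidney and heart.

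Each value below is the relative signal, the processed spot signal divided by the array's 75th percentile over non-control probes. It can be compared between arrays for 1 probe but not between genes. Well above background were 60.9% to 70.4% of the 61537 non-control probes, with no saturated spot (0), and the 75th percentile lay between 825 and 922 intensity units. The 3 corn oil arrays shared 1 slide and scan, and the 3 monuron arrays another. Since 0 of 2 slides held both groups, slide and treatment cannot be told apart for any gene below. Havcr1, the marker of injured proximal tubule known as KIM-1, was 13.4-fold higher with monuron (limma, adjusted p = 0.00623), and 2 of 3 corn oil arrays had it well above background. Its log2 fold change of 3.75 was 2.17 with normexp background correction, and its call was lost with the replicate block (adjusted p = 0.064) and without both corn oil replicate 3 and monuron replicate 1 (adjusted p = 0.128). The 4 spike-in control probes were brighter on monuron arrays, with a mean log2 signal of 14.15 to 14.23 against 13.54 to 13.74. Scaling on them moved the median over all genes, as a log2 fold change, from 0.02 to -0.46, and leaving out scaling moved it to 0.11. Both shift all genes of an array alike, so the difference of -0.26 between the median of the 33 genes and that of all genes cannot change with them.

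No single gene of the 33 passed the test, although most of the central enzymes of beta-oxidation had lower signal on every monuron array than on every corn oil array. In limma at an adjusted p under 0.05, 0 of 33 were called, against 0.949% of all genes called higher and 0.414% called lower. The smallest adjusted p was 0.0539, for Hadha. At an unadjusted p under 0.05, 14 of 33 were lower and 0 higher, where 6.73% of all genes were lower and 10.9% higher. By the probe used for each gene, 15 of 33 had all 3 monuron arrays below all 3 corn oil arrays. This separation was found in 10.3% of all genes. Only Acadm lay wholly above by that probe, 1 of 33, as did 15.5% of all genes, and spike-in scaling turned its direction. The groups overlapped for the other 17. Leaving out 1 array moved the log2 fold change by more than 1.5 times for 17 of the 33 genes, of which Acaa2 and Acaa1b were the 2 with separate groups. The log2 fold change was below 0 for 25 of 33, compared with 44.7% of all genes. Its median was -0.23 over the 33 genes and 0.02 over all genes. The differences were small: 14 genes were at least 1.2-fold lower and 1, Acaa2, at least 1.5-fold lower. Another 4 settings called 2 to 6 of the 33, all lower and Cyp4a1 in each, 14 called 0, and spike-in scaling called 29, where 66.1% of all genes were called lower.

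The lower signal was seen on each monuron array. Taking for each array the median deviation of the 33 genes from their corn oil means, on the log2 scale, the monuron arrays stood at -0.20, -0.29 and -0.24. The corn oil arrays, which enter those means, stood at 0.0023, -0.0131 and 0.0195. On monuron replicates 1, 2 and 3, 22, 26 and 29 of the 33 genes lay below their corn oil mean.

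**Figure D1:**
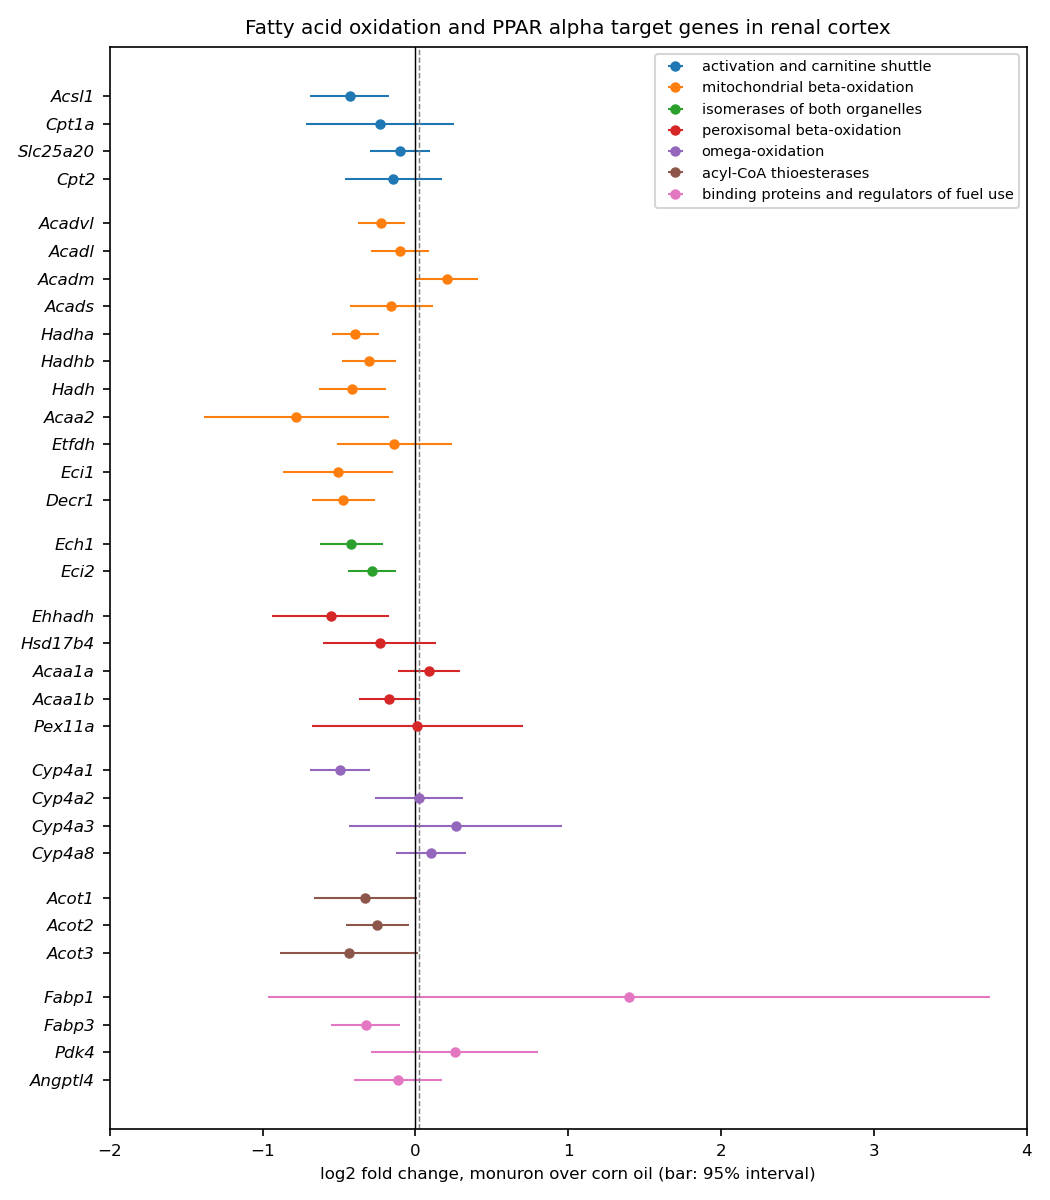
Log2 fold change of each of the 33 genes, monuron over corn oil (3 arrays each), on the 75th percentile scale, with 95% intervals from limma. The solid line marks 0 and the dashed line the median of all genes tested, 0.02; most mitochondrial genes lie to the left of both lines, Acadm lies to the right (left under spike-in scaling), and the interval of Fabp1 is the widest.

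Among the 4 genes of activation and carnitine transfer, 1 separated the groups, lower with monuron, as did 10.3% of all genes. Acsl1, the synthetase that joins long-chain fatty acids to coenzyme A, had a relative signal of 54.8, 45.9 and 45.8 with corn oil and 37.58, 33.03 and 37.95 with monuron. Every monuron array was thus below every corn oil array, by 1.35-fold on average (95% interval 1.13 to 1.61, adjusted p = 0.126). Its 4 probes gave log2 fold changes from -0.49 to -0.39. Cpt1a, the carnitine palmitoyltransferase that limits entry into mitochondria and is a classical PPAR alpha target, read 6.998, 9.306 and 9.096 against 9.24, 6.44 and 6.14. The monuron array of replicate 1 was among the high ones, so the groups overlapped (1.17-fold lower, interval 0.839 to 1.64, adjusted p = 0.587). The log2 fold change of -0.23 was -0.42 without that array and -0.12 without monuron replicate 3. Slc25a20, the carnitine-acylcarnitine carrier of the inner membrane, and Cpt2, which returns the acyl group to coenzyme A, also overlapped, at log2 fold changes of -0.10 ± 0.08 (SE) and -0.14 ± 0.13.

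The spiral opens with acyl-CoA dehydrogenases, of which Acadvl takes the longest chains, Acadl long, Acadm medium and Acads short ones. Acadvl had a relative signal of 21.1, 21.5 and 20.3 with corn oil and 18.3, 18.3 and 17.3 with monuron. The groups were apart, by 1.17-fold (interval 1.05 to 1.30, adjusted p = 0.166), and both of its probes were lower. The Acadm probe read 79.8, 75.3 and 89.9 against 92.69, 94.01 and 95.02. By the probe used for each gene, Acadm was the sole one of the 33 whose monuron arrays were all the higher ones. The fold was 1.153, with an interval that holds no difference (0.999 to 1.33, adjusted p = 0.286). Its log2 fold change of 0.21 became -0.28 with spike-in scaling. Acadl and Acads gave overlapping groups, at -0.10 ± 0.08 and -0.16 ± 0.11. Etfdh, which passes the electrons of all these dehydrogenases to ubiquinone, gave -0.14 ± 0.15, and 0.006 without corn oil replicate 3.

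Of the 33 genes, 4 act in the steps that follow, a grouping made after the values were seen. All 4 had lower signal on every monuron array, as did 10.3% of all genes. Echs1 and Hsd17b10, further mitochondrial enzymes of these steps outside the 33, gave log2 fold changes of -0.06 and -0.09. The groups overlapped for Echs1 and were apart, lower with monuron, for Hsd17b10. Hadha and Hadhb encode the alpha and beta subunits of the mitochondrial trifunctional protein, which hydrates, dehydrogenates and cleaves long chains. Hadha read 9.29, 8.64 and 9.19 with corn oil and 6.99, 6.80 and 6.83 with monuron. The gap between the groups was wider than the spread within either one, at 1.31-fold (interval 1.18 to 1.46, unadjusted p = 0.000834, adjusted p = 0.0539). All 3 Hadha probes were lower, at log2 fold changes from -0.39 to -0.24. Hadhb read 6.20, 6.26 and 6.50 against 5.49, 5.05 and 4.84, again without overlap (1.24-fold lower, interval 1.09 to 1.40, adjusted p = 0.123). The 2 genes are neighbours on chromosome 6, with 0 protein-coding genes between them, and are read in opposite directions from starts that lie close together.

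Because both subunits had lower signal, the stretch between the outer ends of their gene models is shown, read towards Hadha, from the RefSeq sequence of GRCr8 (chr6:31907558-31907800, plus strand, 243 bases). Capitals mark the closest match, at 3 mismatches, to a direct repeat of the hexamer AGGTCA with 1 free base between the copies, the arrangement bound by PPAR with RXR.
Hadha and Hadhb, shared upstream stretch: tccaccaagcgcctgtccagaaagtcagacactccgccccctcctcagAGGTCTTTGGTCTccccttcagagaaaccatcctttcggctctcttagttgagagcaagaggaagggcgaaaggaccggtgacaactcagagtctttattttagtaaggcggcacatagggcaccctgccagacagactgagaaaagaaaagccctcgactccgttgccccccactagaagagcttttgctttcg
The match covers bases 195 to 183 before the Hadha start, and the same bases are the closest match for Hadhb. They begin 118 bases before the start that its RefSeq window uses, which lies inside the outermost Hadhb model, so the printed stretch does not reach that start. A match this loose was common, in 24.9% of 33469 RefSeq promoter windows of equal length around gene starts, both strands searched. Windows were found for 28 of the 33 genes and not for Acaa2, Acadl, Cyp4a1, Decr1 and Ech1. With up to 3 mismatches 10 of 28 windows matched (35.7%), and with up to 1 mismatch 2 did (7.14%, against 0.439% of all windows), Acadvl and Fabp1. No window of the 28 held the exact repeat (0 of 28), which was in 18 of all windows (0.0538%). The 2 closest matches are shown because these genes differed in their values, Acadvl with separate groups and Fabp1 with wide overlap. Both are written in the direction of the gene, with the match in capitals, 17 to 5 bases before the start of Acadvl (GRCr8 chr10:55236706-55236730, minus strand) and 77 to 65 before that of Fabp1 (GRCr8 chr4:104749255-104749283, plus strand, repeat on the opposite strand).
Acadvl: gggagaagAGGTCAGTGGTCAaggc
Fabp1: acaatcacTGACCTATGGCCTatatttga
A match is a run of letters and not a site, and whether PPAR alpha occupies any of them was not measured here.

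Medium and short chains pass through separate enzymes. Hadh, their 3-hydroxyacyl-CoA dehydrogenase, had a relative signal of 163, 177 and 167 with corn oil and 131, 137 and 114 with monuron. The lowest corn oil array exceeded the highest monuron array (1.33-fold lower, interval 1.14 to 1.55, adjusted p = 0.104). The dimmer of its 2 probes was lower by 1.56-fold, at an adjusted p of 0.0351 over all probes. Acaa2, the thiolase of the mitochondrial matrix, read 73.3, 68.4 and 87.0 against 30.4, 52.2 and 54.2. It had the largest fold difference of the 33 genes towards lower signal, 1.72-fold (interval 1.13 to 2.61, adjusted p = 0.198), and monuron replicate 1 was the lowest array, without which the log2 fold change of -0.78 was -0.51. Over these 4 later steps the median log2 fold change was -0.40 (range -0.78 to -0.30), and over the 4 acyl-CoA dehydrogenases it was -0.13 (range -0.22 to 0.21, the upper end turning under spike-in scaling). Both groups hold only genes of the 33, and the difference between them was not tested.

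Auxiliary enzymes move or reduce the double bonds of unsaturated fatty acids so that the spiral can go on. The 4 among the 33 genes, a grouping also made after the values were seen, were lower on every monuron array. Decr2, a further such reductase outside the 33, overlapped between groups at a log2 fold change of -0.07 ± 0.17. Decr1, the 2,4-dienoyl-CoA reductase of mitochondria, read 52.5, 52.4 and 57.8 with corn oil and 41.7, 39.5 and 36.1 with monuron (1.39-fold lower, interval 1.201 to 1.601, adjusted p = 0.0716). Eci1, the mitochondrial enoyl-CoA isomerase, read 85.3, 89.7 and 80.7 against 65.2, 68.3 and 48.2. It was 1.42-fold lower (interval 1.11 to 1.82, adjusted p = 0.172), and monuron replicate 3 was the lowest. The other 2 isomerases are found in both mitochondria and peroxisomes. Ech1, which acts on dienoyl-CoA, read 31.4, 32.9 and 31.3 against 25.5, 24.5 and 21.6 (1.34-fold lower, interval 1.16 to 1.54, adjusted p = 0.0896). Eci2 read 29.1, 30.6 and 29.3 against 24.6, 23.4 and 25.0 (1.22-fold lower, interval 1.09 to 1.36, adjusted p = 0.108). For none of these 4 enzymes did the groups overlap, and their median log2 fold change was -0.45. Lower groups without overlap were found in 10.3% of all genes.

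**Figure D2:**
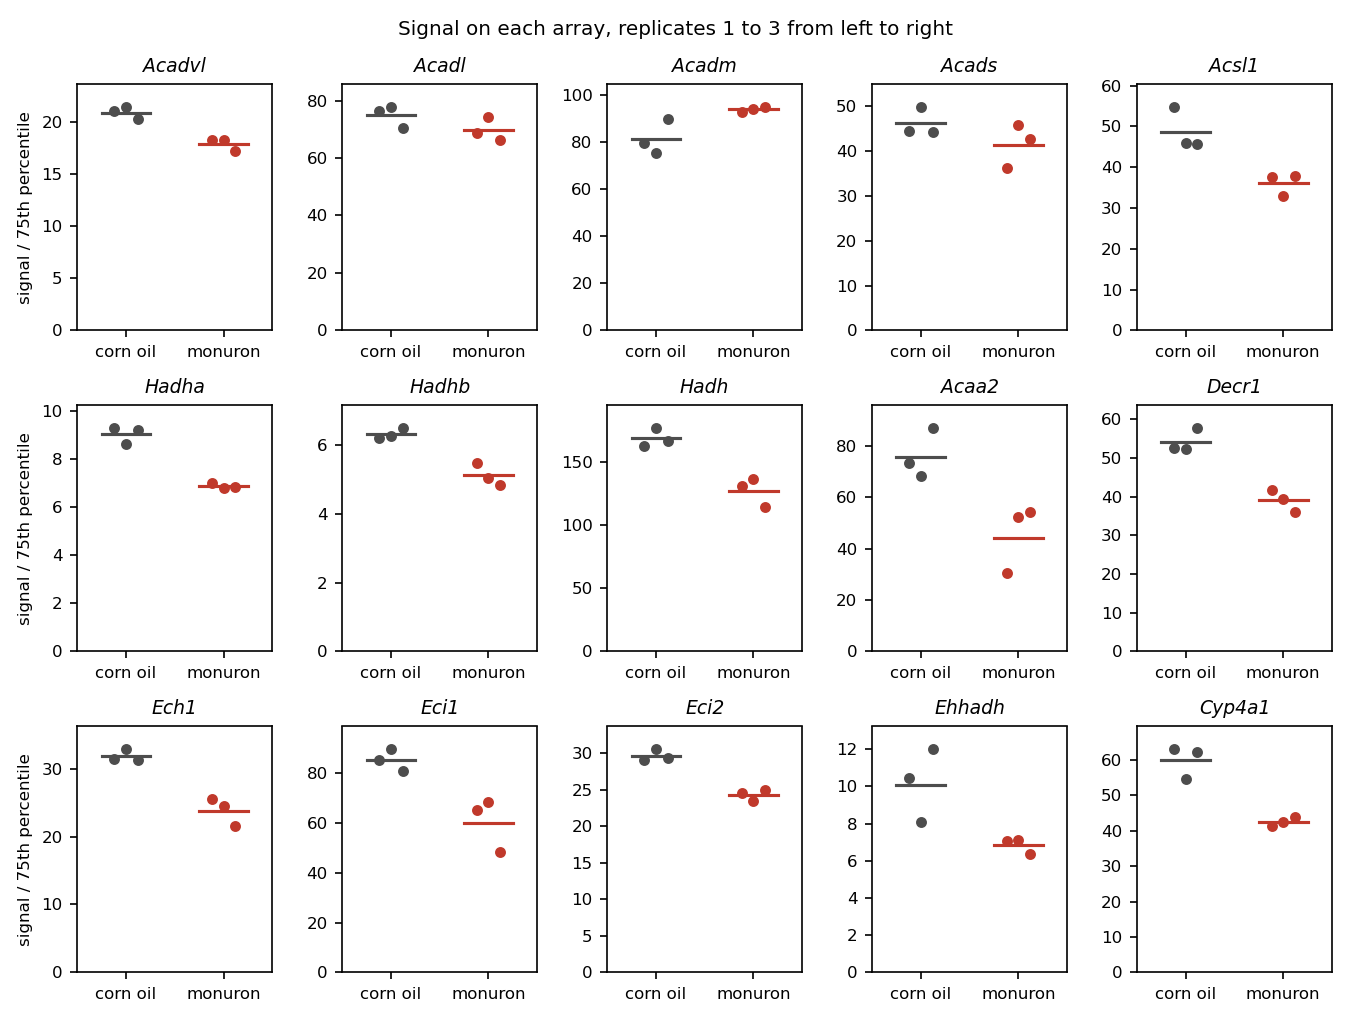
Relative signal (spot signal over the array's 75th percentile, linear axes from 0) of 15 genes on the 3 corn oil and 3 monuron arrays; points are single arrays and lines the mean of the log2 values. Acadl and Acads overlap between groups, Acadm is higher on monuron arrays (lower under spike-in scaling), and the other 12 are lower on every monuron array.

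Peroxisomal beta-oxidation was mixed. By the probe used for each, 1 of 5 genes was lower at an unadjusted p under 0.05, beside 6.73% of all genes. Ehhadh, the bifunctional hydratase and dehydrogenase that responds strongly to PPAR alpha agonists in liver, read 10.4, 8.10 and 12.0 with corn oil and 7.08, 7.12 and 6.35 with monuron. The corn oil arrays were spread widely but all lay above the monuron arrays (1.47-fold lower, interval 1.13 to 1.92, adjusted p = 0.164). Hsd17b4, the second bifunctional enzyme, which serves branched chains and bile acid precursors, overlapped at a log2 fold change of -0.23 ± 0.15. Its dimmer probe gave -0.47 (limma, unadjusted p = 0.0258, adjusted p = 0.220 over all probes), also with overlap. The peroxisomal thiolases come as near-identical copies in rat, and the signal of each probe may include the other. Acaa1b read 150, 146 and 144 against 133, 119 and 141, a separation of 1.13-fold with an interval from 0.98 to 1.29. Its other probes, at log2 fold changes of -0.08 and -0.16, overlapped between groups. Acaa1a gave 0.09 ± 0.08, its probes ranged from -0.16 to 0.09, and spike-in scaling and the mean of its probes turned the sign. Pex11a, a membrane protein that promotes peroxisome division and a known PPAR alpha target, gave 0.01 ± 0.28, with corn oil arrays from 24.4 to 46.0 and a sign that turned under the same settings and without corn oil replicate 1 or monuron replicate 2.

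In omega-oxidation 1 of 4 genes separated the groups, lower with monuron, as did 10.3% of all genes. Cyp4a1 read 63.1, 54.7 and 62.1 with corn oil and 41.2, 42.5 and 43.9 with monuron. It was 1.41-fold lower (interval 1.23 to 1.62, adjusted p = 0.0586), and its dimmer probe was 1.49-fold lower at an adjusted p of 0.0332 over all probes. The other 3 genes overlapped between groups by the probe used for each. Cyp4a2, an arachidonic acid omega-hydroxylase of the kidney, gave a fold of 1.02 (interval 0.834 to 1.24), with log2 fold changes on either side of 0 depending on the array left out. Cyp4a3 stood at 226 on monuron replicate 1 and between 110 and 122 on all other arrays, so that its log2 fold change was 0.26 with that array and -0.070 without it. Cyp4a8 gave 1.07-fold (interval 0.914 to 1.26) for its brightest probe, while the others were 1.40-fold and 1.73-fold higher (adjusted p = 0.178 and 0.0877 over all probes). By each of those dimmer probes, every monuron array lay above every corn oil array. Spike-in scaling turned the sign of all 3 genes. The 4 genes lie in 1 cluster on chromosome 5 and are similar in sequence, so their probes may share signal.

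The 3 acyl-CoA thioesterases among the 33 genes, which release free fatty acids from coenzyme A, had log2 fold changes from -0.44 to -0.25. Outside the 33, Acot4 and Acot9 overlapped between groups at -0.13 and -0.07. Acot8 and Acot13 were higher on every monuron array, at 0.23 and 0.22. Spike-in scaling, which shifts all genes of an array alike, turned Acot13 to -0.27. Acot2, the mitochondrial form, read 20.6, 18.1 and 18.4 with corn oil and 16.4, 16.5 and 15.0 with monuron. These groups were apart (1.19-fold lower, interval 1.03 to 1.37, adjusted p = 0.216). The dimmer Acot2 probe, at a log2 fold change of -0.14, overlapped between groups. The cytosolic Acot1 read 48.8, 36.1 and 48.7 against 33.29, 34.96 and 37.31, overlapping through corn oil replicate 2 (adjusted p = 0.298). The peroxisomal Acot3 also overlapped (1.35-fold lower, interval 0.99 to 1.85, adjusted p = 0.297). The 3 genes are close together on chromosome 6 and similar in sequence, so their probes may share signal.

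The fatty acid binding proteins differed from each other. Fabp3, the heart type, which carries fatty acids in the cytosol, read 27.4, 27.7 and 24.8 with corn oil and 22.0, 19.2 and 22.6 with monuron (1.25-fold lower, interval 1.07 to 1.47, adjusted p = 0.168), and the groups did not overlap. Fabp1, the liver type and a strong PPAR alpha target, read 0.378, 0.192 and 1.57 against 3.52, 0.863 and 0.684. Its mean was 2.63-fold higher with monuron, but the interval ran from 0.512 to 13.6 (adjusted p = 0.501), since corn oil replicate 3 exceeded 2 of the monuron arrays. Albumin (Alb), a liver transcript, read 1.33, 1.09 and 6.34 against 15.3, 4.35 and 4.11, with the same 2 arrays highest. Of 16 hepatocyte markers tested, 12 were well above background on every array, 9 were highest on those 2 arrays and 4 followed the order of all 6 arrays seen for Fabp1, against 2 and 0 of the other 32 genes described here. The part of this marker pattern in the Fabp1 value was not tested; its log2 fold change of 1.40 was 1.51 without both arrays (adjusted p = 0.286), but 0.66 without monuron replicate 1, 0.73 without corn oil replicate 2 and 2.24 without corn oil replicate 3. The median log2 fold change of the 16 hepatocyte markers was 0.77, with 13 above 0, and the groups overlapped for 15 of them. Their summed signal, 196.5 to 219.3 with corn oil and 173.2 to 227.5 with monuron, was mostly that of Serpinc1 and Cyp2e1. Like Alb and Ttr, it was highest on monuron replicate 1 and corn oil replicate 3. Unlike them, it was lowest on monuron replicates 2 and 3, at 173.2 and 181.6.

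The 2 regulators of fuel use among the 33 gave no separation. Pdk4, the kinase that spares glucose by inhibiting pyruvate dehydrogenase, read 0.291, 0.205 and 0.168 with corn oil and 0.249, 0.229 and 0.301 with monuron, a log2 fold change of 0.26 ± 0.22 that became -0.23 with spike-in scaling. Angptl4, a secreted inhibitor of lipoprotein lipase, read 22.8, 17.9 and 20.6 against 20.8, 18.2 and 17.6 (-0.11 ± 0.12). Both are among the most responsive PPAR targets in fasting.

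Outside the 33 genes, 100 of 114 further genes of these pathways were tested, and limma called 1 of them, higher, and 0 lower. At an unadjusted p under 0.05, 10 were higher and 15 lower, beside 10.9% and 6.73% of all genes, and their median log2 fold change was -0.02. The called gene acts in ketone body metabolism. Bdh1, which interconverts acetoacetate and beta-hydroxybutyrate, rose from 0.959, 1.17 and 0.838 to 2.56, 2.01 and 1.95, or 2.20-fold (interval 1.66 to 2.92, adjusted p = 0.0449). That call was lost in 10 of 19 other settings, including each that left out an array, with adjusted p from 0.0186 to 0.204 over all of them. Acat1 and Oxct1, which act in ketone body use, gave -0.11 (adjusted p = 0.542) and -0.04 (adjusted p = 0.828), the sign of Oxct1 turning without scaling.

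**Figure D3:**
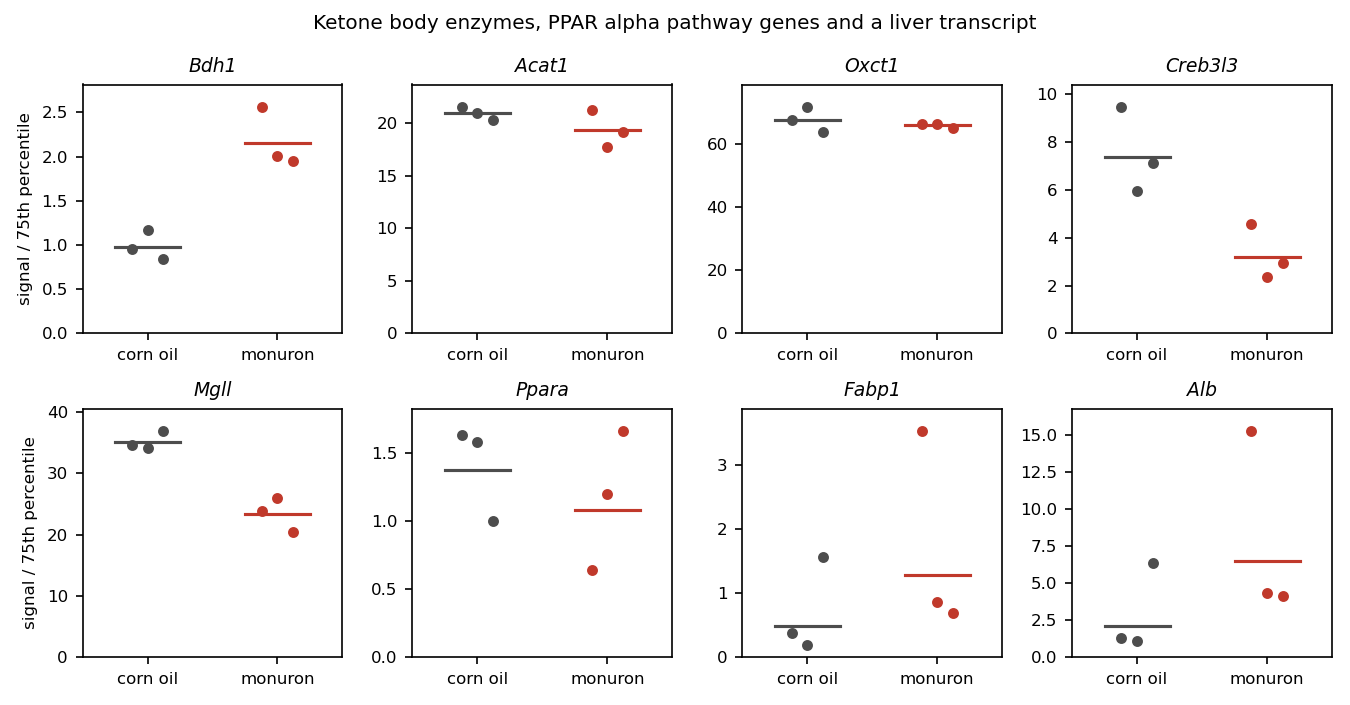
Relative signal (spot signal over the array's 75th percentile, linear axes from 0) of 3 ketone body enzymes, 3 genes of the PPAR alpha pathway, Fabp1 and Alb on each of 6 arrays; lines are the mean of the log2 values. Creb3l3 and Mgll are lower on every monuron array, Bdh1 is higher, and Fabp1 and Alb share their highest 2 arrays, monuron replicate 1 and corn oil replicate 3.

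Ppara itself read 1.63, 1.58 and 1.00 with corn oil and 0.641, 1.19 and 1.66 with monuron. The groups overlapped (-0.34 ± 0.39, adjusted p = 0.690), and the value was 0.038 when monuron replicate 1 was left out. Among 16 tested receptors, partners and coactivators, 2 were higher and 1 lower at an unadjusted p under 0.05, with 0 called. Over all genes, 10.9% were higher and 6.73% lower at that threshold. The smallest p-values were those of Pparg, Ppard and Hnf4a. Pparg, the receptor of fat cells, was 1.37-fold higher by its brighter probe (adjusted p = 0.0953), but its 2 probes gave 0.45 and -1.61, and spike-in scaling turned the brighter one. Ppard was 1.38-fold higher (adjusted p = 0.234), with 3 probes from -0.17 to 0.46 and the sign turned by spike-in scaling. Hnf4a, a nuclear receptor that drives proximal tubule genes, was 1.24-fold lower (adjusted p = 0.179), with 4 probes from -0.31 to 0.01. The coactivator Ppargc1a gave 0.17 ± 0.08 (adjusted p = 0.362), and -0.32 with spike-in scaling.

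Of 17 further PPAR alpha targets, 4 were lower and 1 higher at an unadjusted p under 0.05, and 0 were called. Over all genes, 6.73% were lower and 10.9% higher at that threshold. Creb3l3, a membrane-bound transcription factor of fasting, read 9.46, 5.93 and 7.13 against 4.59, 2.36 and 2.95 (2.32-fold lower, interval 1.42 to 3.80, adjusted p = 0.122). Mgll, which releases fatty acids from monoacylglycerol, read 34.6, 34.1 and 36.9 against 23.9, 26.0 and 20.4 (1.51-fold lower, interval 1.26 to 1.81, adjusted p = 0.0715). Both were lower on every monuron array. Me1, an NADPH-forming enzyme of lipid synthesis, was 1.19-fold higher (adjusted p = 0.153), and Plin2, the coat protein of lipid droplets, gave 0.14 ± 0.10 (adjusted p = 0.523); spike-in scaling turned both.

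Among fatty acid transporters and binders, 1 of 8 was higher and 3 lower at an unadjusted p under 0.05. Over all genes the shares were 10.9% and 6.73%. Slc27a1, a fatty acid transporter of the cell surface, read 3.39, 3.35 and 3.65 against 2.49, 2.61 and 2.80 (1.31-fold lower, adjusted p = 0.085). Dbi, the acyl-CoA binding protein, read 132.4, 132.8 and 132.3 against 111.2, 110.4 and 117.5 (1.17-fold lower, adjusted p = 0.146). Lipoprotein lipase (Lpl), which frees fatty acids from circulating triglyceride, read 0.849, 0.816 and 1.01 against 1.53, 1.46 and 1.22 (1.57-fold higher, adjusted p = 0.0882). The 3 genes separated the groups, with Lpl opposite to the others.

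The rest of the mitochondrial set, 20 tested genes, had a median log2 fold change of -0.03. At an unadjusted p under 0.05, 2 were higher and 1 lower, beside 10.9% and 6.73% of all genes. Acsm2, a medium-chain acyl-CoA synthetase of the proximal tubule, read 222, 209 and 212 against 153, 169 and 171 (1.31-fold lower, adjusted p = 0.081). The thioesterase Acot13 was 1.16-fold higher (adjusted p = 0.177) and the synthetase Acsl5 1.21-fold higher (adjusted p = 0.283), both turning under spike-in scaling. Cpt1b, the muscle form of carnitine palmitoyltransferase, gave 0.17 ± 0.16 (adjusted p = 0.613), turning likewise. In 22 further peroxisomal genes the median was 0.03. At the same threshold 2 were higher and 3 lower, beside those same shares of all genes. Pex5, the import receptor, was 1.19-fold lower (adjusted p = 0.137), and Abcd3, a fatty acid transporter of the peroxisomal membrane, 1.17-fold lower (adjusted p = 0.202). Acox2, the oxidase of bile acid precursors and branched chains, was 1.89-fold higher (adjusted p = 0.178). Of 12 further omega-oxidation genes, Cyp4b1 was 1.43-fold lower (adjusted p = 0.146). Of the corn oil arrays, 0 of 3 had Cyp4f18 well above background, so no fold is given for it. Cyp4x1 was well above background on 1 of 3 and gave a log2 fold change of 0.52 ± 0.27 (adjusted p = 0.372), which a floor on low values turned to -0.19.

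**Figure D4:**
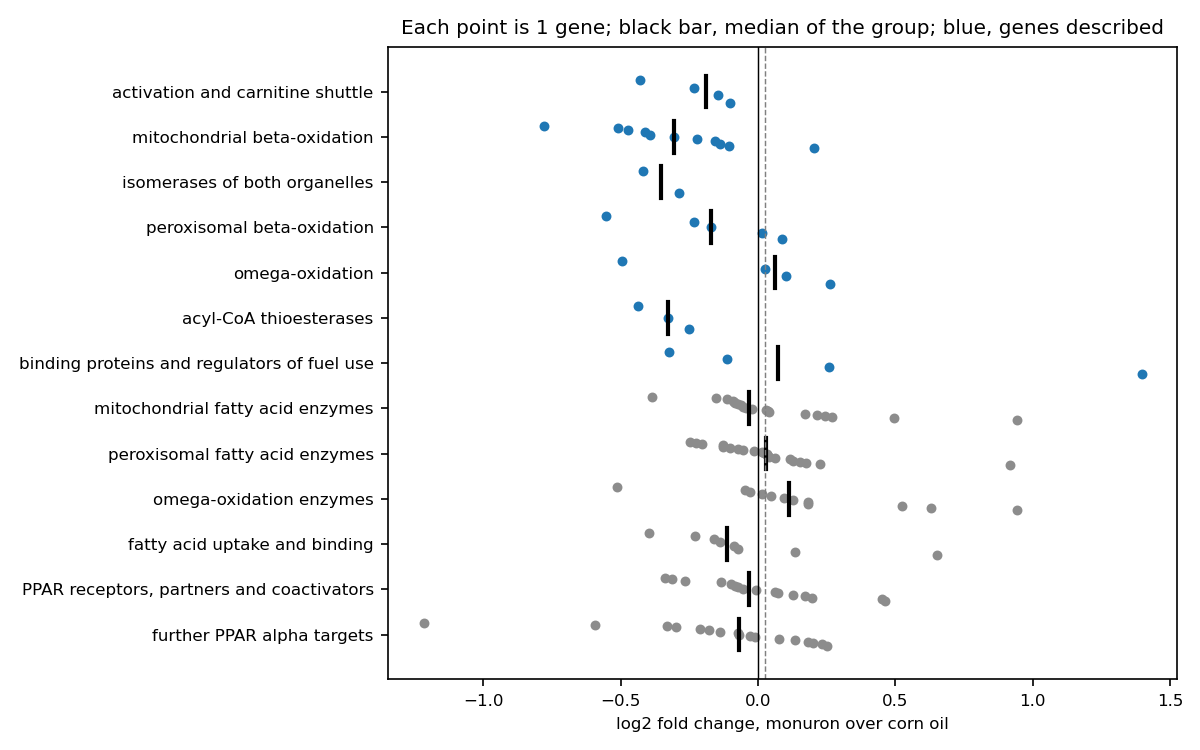
Log2 fold change (monuron over corn oil, 75th percentile scale) of tested genes by group, the 33 genes in blue and further pathway genes in grey; black bars are group medians and the dashed line the median of all genes, 0.02. The mitochondrial group of the 33 has a median of -0.30 and the further mitochondrial genes -0.03; spike-in scaling moves all genes to the left.

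Markers of the early proximal tubule were mixed, with a lower summed signal on the monuron arrays. Of 11 markers of the S1 and S2 segments of the proximal tubule, limma called 0, 4 were lower at an unadjusted p under 0.05 (6.73% of all genes), 6 were lower on every monuron array (10.3% of all genes) and 3 had log2 fold changes above 0, with a median of -0.13 over the list. Their summed relative signal was 1472 to 1602 with corn oil and 1287 to 1414 with monuron, without overlap. The sum is weighted to the brightest markers, such as Slc13a3 and Slc34a1. Cubn and Lrp2, the endocytic receptors cubilin and megalin, were 1.61-fold and 1.43-fold lower (adjusted p = 0.0669 and 0.076). Slc34a1, the phosphate transporter of the same segments, gave -0.09 ± 0.10 (adjusted p = 0.677). Slc2a2, the glucose transporter GLUT2, was 1.33-fold higher with overlapping groups (adjusted p = 0.301), and Slc5a12 and Slc4a4 gave 0.10 and 0.04, all 3 turning under spike-in scaling. The S3 markers, 6 in all, had a median of 0.49, whose sign spike-in scaling turned. The 5 above 0 overlapped between groups, and Slc5a1, the glucose transporter SGLT1, was 1.41-fold lower on separate groups (adjusted p = 0.168). The summed S3 signal was 217.6 to 273.4 with corn oil and 230.3 to 302.9 with monuron. The 8 distal nephron markers had a median of 0.05. Of 6 injury markers 3 were called higher, Havcr1 among them, as were 5 of 7 erythroid markers. Limma called 0 of the 5 podocyte, 5 endothelial and 4 leukocyte markers tested. The shares of all genes called were 0.949% higher and 0.414% lower. Summed adipocyte markers were 1.419 to 2.422 against 1.673 to 1.718, and muscle markers 0.929 to 1.03 against 0.9615 to 1.15. The part of tubule composition in the lower signal of the oxidation enzymes was not tested.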

How the data were processed

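Renal cortex RNA of 3 corn oil and 3 monuron rats was hybridised to 1-colour Agilent arrays. The deposited scanner files hold spot intensity, which the authors obtained using Agilent Feature Extraction (version 10.7 in the submitters' processing notes). The value table that the authors deposited is a linear ratio: its values equal the processed signal over 1 constant per array within 0.0497%, near the 75th percentile, with column medians of 0.109, 0.111 and 0.112 for corn oil and 0.111, 0.111 and 0.110 for monuron. It served as an alternative. No centring or change of direction was found, and no column was left unmapped (0).

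The values analysed were log2 processed signals, each array shifted by its 75th percentile over 61537 non-control probes, leaving out 1439 control spots and spots marked as outliers. A probe entered when the 3 arrays of either group all had it well above background (41125 probes). Probe accessions, stripped of versions, were looked up in a RefSeq table (GRCr8), which named 28206 probes (45.8%) and 15645 symbols; coordinates are those of GRCr8 alone, since the arrays were designed on an older rat build. The brightest probe stood for each gene, giving 30229 genes, tested with limma 3.58.1 in R 4.3.3 (lmFit, eBayes, two-sided, Benjamini-Hochberg over all genes, threshold 0.05). Of 15 members with several probes, 13 had log2 fold changes of 1 sign, the exceptions being Acaa1a and Pex11a. Log2 fold changes are given with standard errors (n = 3 per group), intervals are 95% intervals from limma, and the number of arrays limits the precision. The labels speak of 3 animals per group. The test was checked on simulated data.

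The members and gene lists were chosen with earlier results of these data known, and the grouping of mitochondrial steps after the values were seen. Every one of the 33 genes is given with values or within a range. Echs1, Hsd17b10, Decr2, Acot4, Acot8 and Acot9 are given beside related genes of the 33. Of each further list the 3 genes with the smallest unadjusted p are named, with the ketone body enzymes and Ppara, Ppargc1a, Cpt1b and Plin2 (some genes that this rule names are not reported here), and of the markers Alb, Lrp2, Slc34a1, Havcr1 and those beside a result. Alternatives covered scaling, background (normexp, offset 50, on the median spot signal, as the files used here hold no mean), detection, probe rule, variance model, replicate block and leaving out arrays.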

Additional observations from a re-analysis of the deposited data

How the results depend on the processing

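All 15 genes with lower, non-overlapping monuron arrays kept a log2 fold change below 0 under each of 19 alternatives, as did 24 of the 25 members below 0, Etfdh being the exception (0.006 without corn oil replicate 3). Which genes pass 0.05 depended on the settings. The count of genes called, 412 (69.7% higher), was 767 with normexp and quantile normalization, 86 without a detection filter, 707 with trended and robust variances, 20298 with spike-in scaling (1.54% higher), and 30 to 138 when 1 array was left out; without scaling it was 427 (85.7% higher) and with normexp 58.7% of calls were higher. Without both corn oil replicate 3 and monuron replicate 1 it was 0, with 4190 genes at an unadjusted p under 0.05. The members called, 0, were 29 with spike-in scaling, 4 with normexp (Cyp4a1, Decr1, Eci2, Hadha), 2 with detection on all 6 arrays (Cyp4a1, Hadha), 2 with the mean of probes (Cyp4a1, Hadh) and 6 with trended and robust variances (Cyp4a1, Decr1, Ech1, Eci2, Hadh, Hadha). The members' median, -0.23, was -0.15 without scaling, -0.72 with spike-in scaling, -0.30 without that pair of arrays, and -0.27 to -0.20 with 1 array left out. The cause was not tested for these.

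Same-numbered arrays had correlations of deviations of -0.0801, 0.1064 and -0.1652, and differently numbered ones -0.1348 to 0.224. These values gave no sign that the replicate numbers pair the samples. With 3 arrays a group they cannot exclude a pairing. With the replicate block limma called 0 genes and 0 members, with 4557 genes and 14 members, all lower, at an unadjusted p under 0.05.

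With spike-in scaling the log2 fold changes turned to -0.28 for Acadm, -0.40 for Acaa1a, -0.47 for Pex11a, -0.46 for Cyp4a2, -0.22 for Cyp4a3, -0.39 for Cyp4a8 and -0.23 for Pdk4, and to -0.27 for Acot13, -0.22 for Acsl5, -0.038 for Pparg, -0.025 for Ppard, -0.24 for Me1, -0.32 for Ppargc1a, -0.32 for Cpt1b and -0.35 for Plin2. Without scaling Oxct1 was 0.050. A floor on low values gave -0.11 for Cyp4f18 and -0.19 for Cyp4x1. The mean of probes gave -0.057 for Acaa1a, -0.026 for Pex11a and -0.58 for Pparg. Leaving out 1 array or the pair turned the sign of 8 genes, which ranged from -0.22 to 0.006 for Etfdh, from -0.22 to 0.36 for Pex11a, from -0.074 to 0.098 for Cyp4a2, from -0.094 to 0.45 for Cyp4a3, from -0.084 to 0.0066 for Oxct1, from -0.65 to 0.038 for Ppara, from -0.028 to 0.26 for Cpt1b and from -0.15 to 0.0043 for Slc34a1. The cause was not tested. The number of arrays, 3 a group, limits the precision, and slide and treatment cannot be told apart.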
